A study of Mus musculus with 12 samples.

Results

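Kupffer cells are the resident macrophages of the liver, and 10 genes that mark them were followed here among the 20069 genes of a poly(A) RNA-Seq time course. They are known markers of these cells, chosen by name and with earlier results of these data known: *Cd68*, *Csf1r*, *Emr1*, *Clec4f*, *Marco*, *Cd5l*, *C1qa*, *C1qb*, *C1qc* and *Vsig4*. The livers came from wild-type C57BL/6 male mice of 3 to 6 months, kept in 12 hr of light and 12 hr of darkness. Whole liver was taken at 6 Zeitgeber times (ZT0 is lights on), ZT2, ZT6, ZT10, ZT14, ZT18 and ZT22, with 2 replicates each and thus 12 samples in all. The labels do not say whether the replicates are separate animals or pools, so that p-values measure only the spread between these samples. The question was whether these mRNAs change with the time of day, and whether they move with an acute-phase state seen in the ZT2 samples.

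Kupffer cells line the liver sinusoids, where they take up particles, bacteria and old red cells from portal blood. Their survival depends on the receptor encoded by *Csf1r*, and they are a main source of the complement component C1q, which starts the classical pathway by binding to immune complexes and dying cells. They also sense bacterial products and can prompt hepatocytes, through cytokines, to secrete acute-phase proteins. In whole liver, fewer cells of a type and less RNA per cell cannot be told apart, so each value below is a level in the tissue. Levels are given in reads per base pair of exon (rpbp), which is already per length and can be compared between genes.

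Because these genes moved together, as shown further on, the 300 bases around their start sites (250 before and 50 after) are shown for 5 of them. RefSeq promoters (GRCm38.p6) were at hand for 7 of the 10 genes. Those of *C1qa*, *Emr1* and *Csf1r* were not used here. The capitals mark GAGGAA, a core of the sites of PU.1, the factor that macrophages need, or TTCCTC, the same letters on the opposite strand.
C1qb, chr4:136886151-136886450, minus strand: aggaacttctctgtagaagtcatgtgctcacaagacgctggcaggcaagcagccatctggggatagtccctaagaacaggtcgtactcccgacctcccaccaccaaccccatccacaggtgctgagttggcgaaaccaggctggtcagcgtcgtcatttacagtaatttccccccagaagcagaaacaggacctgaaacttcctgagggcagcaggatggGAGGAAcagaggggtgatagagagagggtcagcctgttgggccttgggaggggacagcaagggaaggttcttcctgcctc
C1qc, chr4:136892865-136893164, minus strand: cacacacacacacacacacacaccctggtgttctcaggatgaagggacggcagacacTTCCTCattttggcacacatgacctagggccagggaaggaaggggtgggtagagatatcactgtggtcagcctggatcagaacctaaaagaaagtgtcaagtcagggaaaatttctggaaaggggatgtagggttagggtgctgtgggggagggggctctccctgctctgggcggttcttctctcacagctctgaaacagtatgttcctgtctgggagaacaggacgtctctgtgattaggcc
Cd5l, chr3:87357631-87357930, plus strand: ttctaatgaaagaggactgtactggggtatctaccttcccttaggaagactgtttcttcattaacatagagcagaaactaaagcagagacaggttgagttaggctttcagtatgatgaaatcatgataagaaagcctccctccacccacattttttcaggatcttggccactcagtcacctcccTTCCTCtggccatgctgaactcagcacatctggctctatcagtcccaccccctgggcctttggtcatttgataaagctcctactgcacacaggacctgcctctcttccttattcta
Vsig4, chrX:96293389-96293688, minus strand: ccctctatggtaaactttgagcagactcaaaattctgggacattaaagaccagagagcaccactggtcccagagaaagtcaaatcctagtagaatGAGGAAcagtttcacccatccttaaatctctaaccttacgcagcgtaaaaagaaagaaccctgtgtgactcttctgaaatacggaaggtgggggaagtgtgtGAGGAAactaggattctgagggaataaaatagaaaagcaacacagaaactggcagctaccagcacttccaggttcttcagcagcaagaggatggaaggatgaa
Clec4f, chr6:83656067-83656366, minus strand: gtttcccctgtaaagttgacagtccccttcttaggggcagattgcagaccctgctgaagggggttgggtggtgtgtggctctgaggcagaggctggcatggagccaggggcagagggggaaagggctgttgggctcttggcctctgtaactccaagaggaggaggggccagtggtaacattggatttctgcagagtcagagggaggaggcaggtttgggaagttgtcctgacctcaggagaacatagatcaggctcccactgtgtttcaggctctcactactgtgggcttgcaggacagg

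GAGGAA was found on either strand in 6 of the 7 promoters, and in 28.3% of the 32851 mouse promoters of the same length. In *C1qb*, one of the 3 chains of C1q, its first base lay 30 bases before the start site, and in *C1qc*, the neighbouring gene, 193 bases before it. In *Cd5l* the distance was 66 bases, and *Vsig4* held the letters 155 and 53 bases before the start site. *Cd68* and *Marco* held them too, and *Clec4f* did not. The letters TTCNNNGAA, the palindrome to which STAT factors bind, were found in 0 of the 7 promoters and in 8.3% of all promoters. The matches are a description of these windows.

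The 10 genes spanned a wide range of levels (mean ± SD, n = 12 samples of all time points). *Cd5l*, which encodes a secreted scavenger-like protein of tissue macrophages, was highest at 156 ± 50.1 rpbp. *Clec4f*, a C-type lectin made in the mouse by Kupffer cells, followed at 139 ± 31.1 rpbp. Their order was not fixed, since *Cd5l* was higher than *Clec4f* in 8 of 12 samples. The C1q chains came next, with 108 ± 29.6 rpbp for *C1qb*, 97.2 ± 24.4 rpbp for *C1qc* and 85.8 ± 18.9 rpbp for *C1qa*. *C1qb* was higher than *C1qc* in 11 of 12 samples, and *C1qc* was higher than *C1qa* in 12 of 12. *Vsig4*, the complement receptor that captures blood-borne bacteria coated with C3, was at 60.6 ± 8.87 rpbp.

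The general macrophage genes were lower. *Csf1r* was at 27.3 ± 4.29 rpbp, *Cd68*, a lysosomal glycoprotein, at 19.9 ± 5.19 rpbp, and *Emr1*, which encodes the F4/80 antigen, at 18.2 ± 3.44 rpbp. *Cd68* was higher than *Emr1* in 8 of 12 samples, and their ranges overlapped. *Marco*, a scavenger receptor for bacteria, was at 2.59 ± 1.66 rpbp, between 0.28 rpbp at ZT14 and 5.96 rpbp at ZT2. It did not reach the expression minimum of 8 rpbp in any sample, so 9 of the 10 genes entered the tests, together with all other genes above it (10198 in all). Each of these 9 exceeded the minimum in every sample. The SD over the 12 samples was a median 22.3% of the mean for these 9 genes, against 14.9% over all expressed genes. In each of the 3 C1q genes on chromosome 4 (mm9, *C1qa* 136451832 to 136454718, *C1qb* 136436044 to 136442102, *C1qc* 136445719 to 136448980), the minus strand is transcribed. Elsewhere lie *Clec4f* (chromosome 6, 83594536 to 83606181), *Cd5l* (chromosome 3, 87161803 to 87174996), *Vsig4* (chromosome X, 93442542 to 93488777), *Cd68* (chromosome 11, 69477715 to 69479655), *Emr1* (chromosome 17, 57498109 to 57622952) and *Marco* (chromosome 1, 122371115 to 122401661).

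**Figure D1:**
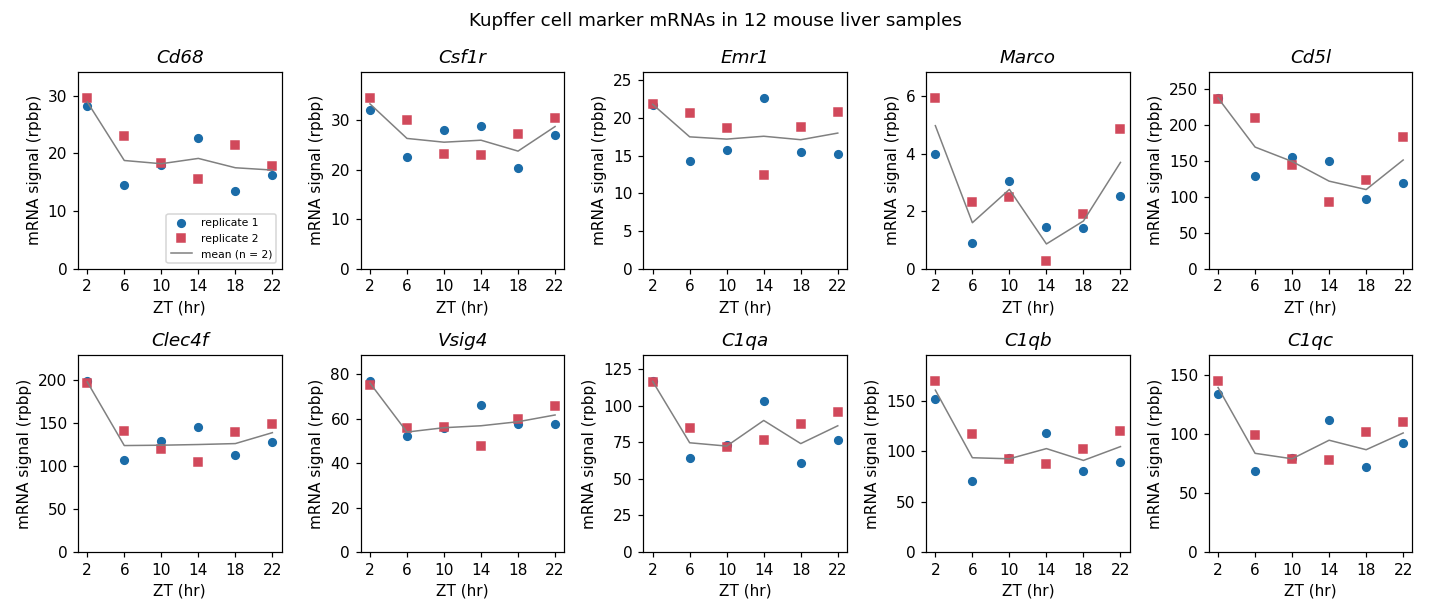
mRNA signal of the 10 Kupffer cell markers in rpbp (linear axis from 0) against Zeitgeber time in hr, with a point for each of the 2 replicates and a line through their means. The ZT2 points lie above all others in 8 of 10 panels, the exceptions being *Emr1* and *Marco*.

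At ZT2, 2 hr after lights on, 7 of the 9 expressed markers rose, and *Csf1r* and *Emr1* did not pass the test. *Clec4f* was at 199 and 197 rpbp at ZT2. In the 10 samples of the other times it ran from 104 to 149 rpbp, with a median of 129 rpbp. Both ZT2 samples thus lay well above the others, and the difference was 0.64 ± 0.14 on the log2 scale (SE; adjusted p = 0.0131, limma). *Cd5l* was at 238 and 237 rpbp at ZT2 and between 93.2 and 209 rpbp (median 136) elsewhere. Its log2 difference was 0.80 ± 0.22 (adjusted p = 0.0322, limma), with replicate 2 of ZT6 closest to ZT2. All differences are of log2(rpbp + 1), between ZT2 and the mean of the other 5 time points, adjusted over the 10198 expressed genes, and a gene with an adjusted p below 0.05 was taken as changed.

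The 3 chains of C1q rose together. *C1qb* was at 152 and 170 rpbp at ZT2, against 70.2 to 120 rpbp (median 92.7) in the other samples, and rose by 0.74 ± 0.19 (adjusted p = 0.0238, limma). *C1qc* was at 133 and 145 rpbp, against 68.2 to 111 rpbp (median 85.6), and rose by 0.66 ± 0.17 (adjusted p = 0.0265, limma). *C1qa* was at 117 and 116 rpbp, against 60.9 to 103 rpbp (median 76.7), and rose by 0.56 ± 0.16 (adjusted p = 0.0339, limma). The groups did not overlap in any of the 3. The proportions of the chains moved less than their levels. The *C1qc* to *C1qb* ratio was 0.879 and 0.851 at ZT2, within its range of 0.842 to 1.03 over the 12 samples. The *C1qa* to *C1qb* ratio was 0.772 and 0.683 at ZT2, and the second of these is the lowest of the 12 (range 0.683 to 0.92).

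*Vsig4* was at 77.2 and 75.1 rpbp at ZT2 and between 47.7 and 66.1 rpbp (median 56.9) elsewhere. It rose by 0.41 ± 0.11 (adjusted p = 0.0275, limma). *Cd68* was at 28.2 and 29.7 rpbp, against 13.5 to 23.0 rpbp (median 17.9), a difference of 0.66 ± 0.20 (adjusted p = 0.0405, limma). *Csf1r* was at 32.0 and 34.6 rpbp, against 20.4 to 30.4 rpbp (median 27.0). The groups did not overlap, but the difference of 0.35 ± 0.14 did not pass the adjustment (adjusted p = 0.108, limma). *Emr1* was at 21.7 and 21.9 rpbp, and the other samples ran from 12.4 to 22.7 rpbp (median 17.2). It overlapped, since replicate 1 of ZT14 exceeded both ZT2 samples, and its difference was 0.33 ± 0.21 (adjusted p = 0.287, limma). *Marco* was at 4.00 and 5.96 rpbp at ZT2 and at 0.28 to 4.88 rpbp elsewhere. Replicate 2 of ZT22 was the one sample between its ZT2 values, and with no expression minimum its difference was 1.03 ± 0.31 (adjusted p = 0.0783, limma).

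In all, 7 of the 9 expressed markers were higher at ZT2 and 0 were lower. Of all expressed genes, 9.96% were higher and 10.3% lower by the same rule. With size factors by the median of ratios, 7 of the 9 markers were higher, and of all expressed genes 7.6% were higher and 12.8% lower. The median difference of the 9 markers was 0.64, against 0.04 over all expressed genes. Both ZT2 samples lay above the other 10 in 8 of the 10 markers, and in 10.4% of all expressed genes. The calls need both ZT2 samples. Without replicate 1 of ZT2, 0 of 9 and 1.44% of all expressed genes were called higher (differences of 0.33 to 0.82, lowest adjusted p = 0.117, limma), and without replicate 2, 0 of 9 and 2.72% (0.30 to 0.80, lowest adjusted p = 0.0968, limma). With no expression minimum, 2 of 9 passed, against 4.23% of all genes, *Clec4f* (adjusted p = 0.0274, limma) and *Vsig4* (adjusted p = 0.0486, limma). *Cd68* also lost its call without replicate 1 or 2 of ZT10, replicate 2 of ZT14 or replicate 1 of ZT22, *C1qa* without replicate 1 of ZT6, and *Cd5l* without replicate 1 of ZT18.

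The second question was whether the markers differ over the day as a whole. In the F-test over the 6 time points, 0 of 9 passed (adjusted p from 0.0845 for *Clec4f* to 0.8 for *Emr1*, limma), against 20.4% of all expressed genes. At an unadjusted p below 0.05 the count was 3 of 9 (*Clec4f*, *Cd5l* and *C1qc*), against 37.7% of all expressed genes. Without replicate 1 of ZT14, 2 of 9 passed the adjusted test, *Clec4f* and *Vsig4*, against 16.3% of all expressed genes. For *Clec4f* the means outside ZT2 were 124 ± 24.2 rpbp at ZT6 (SD, n = 2), 124 ± 6.53 at ZT10, 125 ± 29.4 at ZT14, 126 ± 18.3 at ZT18 and 139 ± 14.5 at ZT22. With the ZT2 samples left out, 0 of 9 passed the adjusted limma test for the 5 remaining times, whereas 6.16% of the expressed genes passed it.

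A 24 hr rhythm was sought with F24, the share of the 24 hr component in the Fourier spectrum of the 12 values. A gene was taken as rhythmic at F24 above 0.45, a permutation p below 0.05 and a ratio of highest to lowest value above 1.5. By this rule 1 of 9 markers was rhythmic, against 19.2% of all expressed genes. It was *Cd5l*, with F24 = 0.575 (permutation p = 0.0239, adjusted p = 0.131), a peak at ZT3.25 and a highest value 2.56 times the lowest. Its means fell from 237 ± 1.10 rpbp at ZT2 (SD, n = 2) to 169 ± 56.9 at ZT6, 149 ± 8.0 at ZT10, 122 ± 40.4 at ZT14 and 110 ± 17.9 at ZT18, and stood at 151 ± 45.3 at ZT22. With adjustment over all expressed genes, 0 of 9 were rhythmic, against 5.17% of all. F24 of the other 8 lay between 0.12 (*Emr1*) and 0.406 (*Clec4f*).

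The rhythm call rested on single samples. *Cd5l* lost it without either ZT2 replicate (F24 = 0.494 both times), without replicate 2 of ZT14 (0.507), and without replicate 1 (0.53) or replicate 2 (0.556) of ZT18. Without both ZT2 samples its F24 was 0.362, and 0 of 9 markers were rhythmic, against 15.1% of all expressed genes. Leaving out replicate 1 of ZT6 or replicate 1 of ZT14 raised the count to 4 each time, against 17.8% and 17.5% of all expressed genes. In the series of replicate 2 alone, 5 of 9 were rhythmic (*Csf1r*, *Emr1*, *Clec4f*, *Cd5l* and *C1qb*), against 3.62% of all expressed genes. In that of replicate 1 alone, 0 of 9 were, against 2.85%.

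The ZT2 samples also stood apart in their acute-phase mRNAs, which hepatocytes make in response to inflammatory cytokines. An index was formed as the mean of log2(rpbp + 1) over 14 such genes, each centred on its mean over the 12 samples. It was 2.08 and 2.05 at ZT2, and 1.66 in replicate 2 of ZT22, whereas the other 9 samples ran from −1.11 to −0.18. Replicate 1 of ZT22 was at −0.52, so the replicates of this time point differed. *Saa1*, the leading acute-phase mRNA of the mouse, was at 13610 ± 986 rpbp at ZT2 (SD, n = 2) and between 57.8 and 5249 rpbp elsewhere, although reads of *Saa1* and *Saa2* may be uncertain because the genes are near-identical.

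The markers rose with this index. The slope of log2 signal per unit of the index was 0.27 ± 0.05 for *C1qb* (SE; adjusted p = 0.00245, limma), 0.22 ± 0.04 for *Clec4f* (adjusted p = 0.00266, limma) and 0.25 ± 0.04 for *C1qc* (adjusted p = 0.00277, limma). It was 0.22 ± 0.04 for *C1qa*, 0.15 ± 0.03 for *Vsig4*, 0.28 ± 0.08 for *Cd5l*, 0.14 ± 0.04 for *Csf1r* and 0.20 ± 0.06 for *Cd68*. *Emr1* had a slope of 0.14 ± 0.05 and did not pass (adjusted p = 0.0764, limma). Thus 8 of 9 had a positive slope that passed and 0 a negative one, against 7.27% and 8.26% of all expressed genes. The median slope was 0.22, against 0.01 over all expressed genes. Other lists, described below, had such slopes too. A positive slope passed in 9 of 10 expressed genes that act with C1q and in 10 of 21 further macrophage genes. Of 12 hepatocyte genes, 4 had a positive and 3 a negative slope that passed, and of 12 endothelial genes 0 had either. The ZT2 samples enter both this test and the one above, so the 2 are not independent.

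Without the ZT2 samples, 0 of 9 slopes passed (lowest adjusted p = 0.335, limma), and the share of all expressed genes that passed was 0.278%. The 9 slopes stayed positive, between 0.07 and 0.22, and 3 of 9 had an unadjusted p below 0.05, against 11.9% of all expressed genes. With the time point as a term, which leaves only the differences between the replicates of a time point, 0 of 9 passed (lowest adjusted p = 0.57, limma), against 0.0981% of all. The slopes were then 0.13 to 0.39, with 2 of 9 at an unadjusted p below 0.05 and 6.51% of all. With 1 ZT2 replicate left out, either one, 5 of 9 slopes passed, those of *Clec4f*, *Vsig4* and the 3 C1q genes, against positive slopes in 2.32% of all expressed genes without replicate 1 and 3.2% without replicate 2. With no expression minimum, 6 of the 9 passed, against 3.35% of all genes, since *Cd68* (adjusted p = 0.0788, limma) and *Csf1r* (adjusted p = 0.0501, limma) were lost, while *Marco* passed (0.43, adjusted p = 0.0397, limma). *Cd68* lost its call in 8 of the 12 fits with 1 sample left out, and *Csf1r* in 3.

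**Figure D2:**
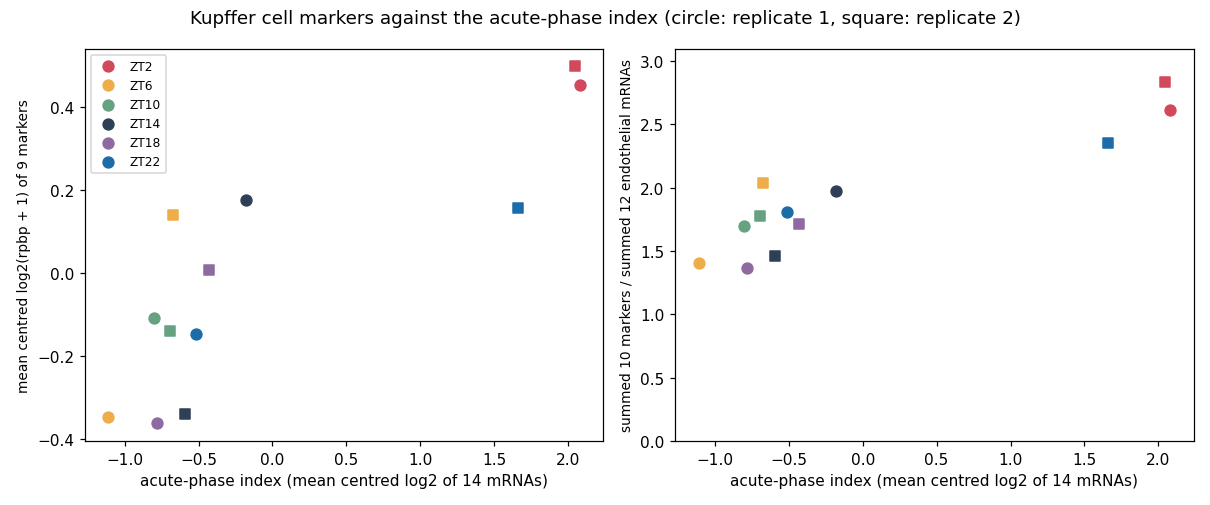
Left, mean of the centred log2(rpbp + 1) of the 9 expressed markers; right, summed signal of the 10 markers over the summed signal of 12 endothelial genes (linear axis from 0), both against the acute-phase index, with a point for each of the 12 samples. The 2 ZT2 samples lie at the upper right (0.46 and 0.50 on the left axis), and replicate 2 of ZT22, at an index of 1.66, has a marker mean (0.16) like those of replicate 2 of ZT6 (0.14) and replicate 1 of ZT14 (0.18), whose index is below 0. On the right axis it is at 2.36, between these samples (2.03 and 1.97) and the ZT2 samples (2.61 and 2.84).

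Replicate 2 of ZT22 had a high acute-phase index, and the 9 expressed markers were below their ZT2 levels in it. Its *Clec4f* was 149 rpbp, the highest value outside ZT2, and its *C1qb* was 120 rpbp, also the highest outside ZT2. *Clec4f* was nearly as high in replicate 1 of ZT14 (146 rpbp) and in replicate 2 of ZT6 (141 rpbp), whose index was −0.18 and −0.68. *Cd68* was at 17.9 rpbp in replicate 2 of ZT22, close to the 17.9 rpbp median of the samples outside ZT2. Summed over the 10 markers, replicate 2 of ZT22 was the highest sample outside ZT2, at 798 rpbp, followed by replicate 2 of ZT6 at 783 rpbp and replicate 1 of ZT14 at 771 rpbp. Its ratio to the summed endothelial genes was also the highest outside ZT2, at 2.36, against 2.03 and 1.97 in these samples.

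The replicates of a time point differed in all markers at once. At ZT6, replicate 2 was higher in 10 of 10 markers, with a median log2 difference of 0.50 over the 9 expressed ones (1.42-fold), and in 58.7% of all expressed genes. At ZT14 the order was turned, and replicate 2 was higher in 0 of 10 markers (median −0.48), against 36.0% of all expressed genes. At ZT18 replicate 2 was higher in 10 of 10 (median 0.35), against 49.5% of all. At ZT22 it was again higher in 10 of 10 (median 0.25), against 46.5% of all. At ZT10 and ZT2 the replicates lay close together. Replicate 2 was higher in 3 of 10 markers at ZT10 (median −0.01, against 52.8% of all) and in 6 of 10 at ZT2 (median 0.01, against 42.4% of all).

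**Figure D3:**
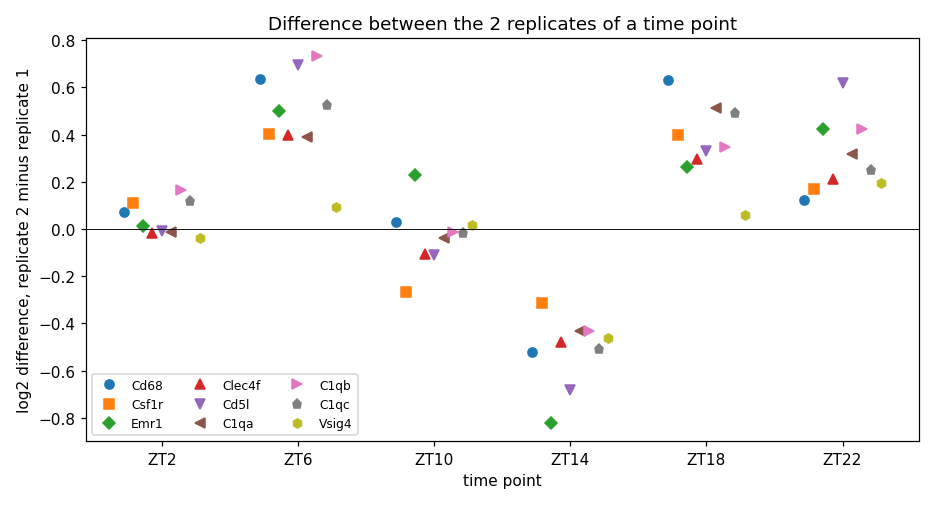
Log2 difference of log2(rpbp + 1) between replicate 2 and replicate 1 at each of the 6 time points, with a point for each of the 9 expressed markers. All points lie above 0 at ZT6, ZT18 and ZT22, all lie below 0 at ZT14, and they scatter around 0 at ZT2 and ZT10.

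At each of the 4 time points where the replicates diverged, the one with the higher markers also had the higher acute-phase index. At the other 2 time points, where the markers lay close together, the replicate with the higher index had the lower value in most markers (7 of 10 at ZT10, with an index of −0.80 against −0.69, and 6 of 10 at ZT2, with 2.08 against 2.05). The index was −1.11 in replicate 1 of ZT6 against −0.68 in replicate 2. The same values were −0.18 against −0.59 for ZT14 and −0.78 against −0.43 for ZT18. For ZT22 they were −0.52 against 1.66. The gap in the index was thus widest at ZT22, where the median gap of the markers was the smallest of the 4. *Cd5l* was at 129 and 209 rpbp at ZT6 and at 150 and 93.2 rpbp at ZT14. *Emr1* was at 22.7 and 12.4 rpbp at ZT14, the widest gap of any expressed marker within a time point (log2 difference −0.82). *Vsig4* moved least at ZT6 (0.09) and ZT18 (0.06), but fell with the others at ZT14 (−0.46). The median gaps over the markers, at most 0.50, were smaller than the median rise of 0.64 at ZT2. For single genes this did not always hold. The widest gap exceeded the gene's own ZT2 difference in size in *Emr1* (−0.82 against 0.33), *Csf1r* (0.40 at ZT6 against 0.35) and *Vsig4* (−0.46 against 0.41). In the other expressed markers it was smaller, but close in *C1qb* (0.73 at ZT6 against 0.74) and *Cd68* (0.635 at ZT6 against 0.664). A gap is between 2 single samples, whereas the rise is between means.

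Over the 12 samples, Pearson's r between 2 of the 9 markers was 0.75 to 0.97 (36 pairs, median 0.86), against a median of 0.02 over all pairs of expressed genes. *C1qa* and *C1qc* were closest (0.97), and *Csf1r* and *Emr1* farthest apart (0.75). After the mean of each time point was removed, r was 0.61 to 0.98 (median 0.91), against 0.04 for all pairs. The points share their libraries and scaling, and the values are a description. Of 8944 other genes with a mean of at least 8 rpbp, the 10 most like the mean profile of the markers were *Ctss* (r = 0.98), *Cfp* (0.95), *Ly6e* (0.93), *Sdc3* (0.93), *Clpp* (0.91), *Cd53* (0.91), *Tgm2* (0.89), *Lgmn* (0.89), *Laptm5* (0.89) and *Parp14* (0.89), over 12 samples. *Ctss* encodes the lysosomal protease cathepsin S, *Cfp* encodes properdin of the alternative complement pathway, and *Laptm5* encodes a lysosomal membrane protein of blood cells. These 3 were also on the list of 26 further macrophage genes.

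Of those 26 genes, 19 had a mean of at least 8 rpbp, and with that minimum 4 of them rose at ZT2 and 0 fell, against 10.2% of all such genes that rose. With 1 ZT2 replicate left out, either one, 1 macrophage gene of the list passed. *Fcna*, which encodes ficolin A, a pattern recognition lectin, was at 83.5 ± 4.07 rpbp at ZT2 (SD, n = 2) and rose by 0.59 ± 0.14 (adjusted p = 0.0194, limma). *Ctss* rose by 0.78 ± 0.24 (adjusted p = 0.0493, limma) and *Lyz2* (lysozyme, whose reads may be shared with its close paralogue) by 0.52 ± 0.16 (adjusted p = 0.0438, limma). *Csf2rb*, the shared chain of the GM-CSF, IL-3 and IL-5 receptors, is not among the 4, since it exceeded 8 rpbp only in a ZT2 sample, and was at 7.64 ± 0.62 rpbp at ZT2 against 2.52 to 5.64 rpbp elsewhere. *Id3*, a helix-loop-helix regulator that other liver cells also express, was at 332 ± 17.0 rpbp at ZT2 and at 58.7 to 177 rpbp elsewhere, and rose by 1.62 ± 0.24 (adjusted p = 0.00219, limma). *Timd4*, the phosphatidylserine receptor of resident Kupffer cells, was at 14.7 ± 3.76 rpbp, with a difference of 0.55 ± 0.21 (adjusted p = 0.0994, limma). *Cd163*, the haptoglobin-haemoglobin scavenger receptor, differed by 0.15 ± 0.15 (adjusted p = 0.491, limma), and *Nr1h3*, the nuclear receptor LXRα that hepatocytes make as well, by 0.02 ± 0.06 (adjusted p = 0.849, limma).

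Around *Csf1r*, the ligand genes were low, with *Csf1* at 4.96 to 7.88 rpbp and *Il34* at 1.32 to 3.40 rpbp. Of the 10 genes of this axis 5 were expressed, and 0 changed at ZT2 in limma after adjustment. *Spi1*, which encodes PU.1, was at 12.6 ± 1.78 rpbp at ZT2 (SD, n = 2) and 6.00 to 11.04 rpbp elsewhere (difference 0.45 ± 0.19, adjusted p = 0.131, limma). Among the genes that act with C1q, which are largely made by hepatocytes, 7 of 10 expressed ones rose at ZT2 and 0 fell, although 0 passed without either ZT2 replicate. They included *C1ra*, *C2*, *C4a*, *C4b* and *Serping1*, and reads of *C4a* and *C4b* may be uncertain, since these genes are near-identical. *C2*, the protease of the C3 convertase, rose by 0.77 ± 0.17 (adjusted p = 0.0137, limma), and *Serping1*, the C1 inhibitor, by 0.41 ± 0.11 (adjusted p = 0.0248, limma). *C3* differed by 0.42 ± 0.17 (adjusted p = 0.109, limma).

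**Figure D4:**
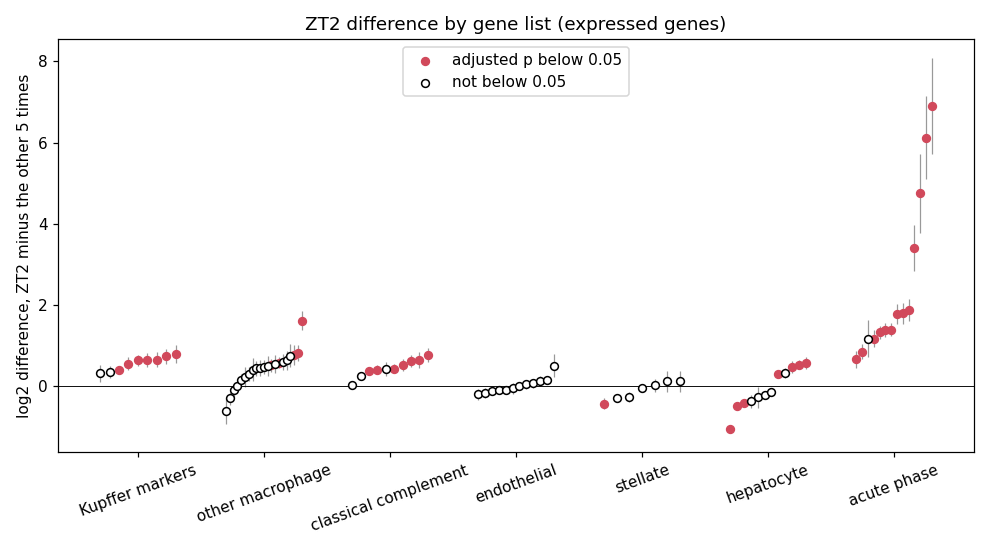
Log2 difference in log2(rpbp + 1) between ZT2 and the other 5 time points, with its SE, for each expressed gene of 7 lists; filled points have an adjusted p below 0.05 (limma). The 9 Kupffer cell markers lie between 0.33 and 0.80, and the 12 endothelial genes between −0.19 and 0.51 with none filled.

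Markers of the other cells of the sinusoid were read in the same samples. Of 12 endothelial genes, all expressed, 0 passed at ZT2 (median −0.02, limma), and their summed signal was 364 and 384 rpbp at ZT2, within the 339 to 398 rpbp of the other samples. The summed signal of the 10 Kupffer markers was 1003 and 1032 rpbp at ZT2, against 531 to 798 rpbp. The ratio of the 2 sums was 2.61 and 2.84 at ZT2 and 1.36 to 2.36 (median 1.74) elsewhere. With each sample scaled to the endothelial genes, 7 of 9 Kupffer markers rose at ZT2, against 7.9% of all expressed genes. Of 7 expressed stellate cell genes, *Reln* fell (−0.42 ± 0.13, adjusted p = 0.0492, limma) and 0 rose, and the call of *Reln* was lost without either ZT2 replicate.

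Lymphocyte genes were low. The 12 lymphocyte genes summed to 10.8 and 13.7 rpbp at ZT2 and to 5.88 to 12.7 rpbp elsewhere, and 0 of 12 were expressed. The T cell gene *Cd3e* (0.08 to 1.48 rpbp) was near 0. The 12 monocyte and neutrophil genes summed to 26.8 and 30.4 rpbp at ZT2, 29.7 rpbp in replicate 2 of ZT22 and 7.28 to 23.5 rpbp in the other 9 samples. The highest members of this list were *S100a8* (5.92 and 10.32 rpbp at ZT2, 0.28 to 5.16 elsewhere) and *S100a9* (10.2 ± 0.62 rpbp at ZT2, 1.20 to 14.9 elsewhere). No gene of the list had a mean of 8 rpbp. These 2 genes entered the tests through single values above 8 rpbp, *S100a8* only through a ZT2 sample. Neither passed at ZT2 (adjusted p = 0.0698 and 0.166, limma). Their slopes on the acute-phase index, 0.616 ± 0.147 and 0.616 ± 0.135 (SE), both passed (adjusted p = 0.0139 and 0.00881, limma). Of all expressed genes, 7.27% had a positive slope that passed. The part of this list in the result was not tested. Its defining genes were low, with *Ccr2* at 0.36 to 2.56 rpbp, *Itgam* at 0.20 to 0.84 rpbp and *Mpo* at 0 to 0.16 rpbp.

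Genes that macrophages switch on when activated were mostly not expressed. Of 15 such genes, 2 passed the expression minimum. *Tnf* was at 0 to 1.00 rpbp, *Il1b* at 0.68 to 2.24 rpbp, and *Il6* at 0 at ZT2 and at most 0.20 rpbp elsewhere. *Saa3*, an acute-phase gene that macrophages also make, was at 247 ± 85.7 rpbp at ZT2 (SD, n = 2) and at 4.32 to 21.7 rpbp elsewhere, and rose by 4.47 ± 0.52 (adjusted p = 6.19e-04, limma). *Cxcl10* was the other expressed gene (0.09 ± 0.38, adjusted p = 0.892, limma).

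Abundant hepatocyte mRNAs changed at ZT2 as well. *Alb*, the mRNA of albumin, was at 51790 ± 1895 rpbp at ZT2 (SD, n = 2) and between 93170 and 122500 rpbp elsewhere (−1.04 ± 0.10, adjusted p = 2.8e-04, limma), and 13 of 14 acute-phase genes rose (6 and 8 without replicate 1 or 2 of ZT2). Of 12 hepatocyte genes, 4 rose and 3 fell (0 and 1 without replicate 1 of ZT2, 1 and 1 without replicate 2). By the same rule, 9.96% of all expressed genes rose and 10.3% fell. The acute-phase state at ZT2 was known beforehand, so the count of acute-phase genes is no separate result. As the signal is relative to all mapped sequences, changes of abundant mRNAs like *Alb* enter every other value. Biliary keratin genes were near 0 (*Krt19* 0.28 to 2.48 rpbp), while *Spp1* rose by 1.10 ± 0.27 (adjusted p = 0.0199, limma) and *Sox9* by 0.81 ± 0.24 (adjusted p = 0.0438, limma). Of these 2 calls, 1 was left without replicate 1 of ZT2 and 0 without replicate 2. The erythroid genes summed to 398 and 515 rpbp at ZT2 and to 353 to 1176 rpbp elsewhere, and 0 of the 3 expressed ones passed the test (limma). Because both ZT2 samples had a high acute-phase index, the time of day and the acute-phase state cannot be told apart at ZT2.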

How the data were processed

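Poly(A) RNA-Seq of 12 whole liver samples was analysed. The authors mapped the sequences to mm9 (CASAVA 1.8 and TopHat are named in the submitters' processing notes), kept those with 1 place, flattened the exons of each gene and summed coverage without regard to strand. The deposited signal is this coverage per base pair, scaled by the authors to 10000000 uniquely mapped sequences. It was multiplied by 4 here, to 40000000. The deposited F24 score, phase and p-value columns hold the authors' own rhythm analysis and were not used. The columns named ZT20 were taken as ZT22, the time in the sample descriptions. It is a coverage and gives no counting interval.

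The members and gene lists were chosen with earlier results of these data known. Genes with a value above 8 rpbp were kept. limma with trend was fitted to log2(rpbp + 1) of all samples, with Benjamini-Hochberg adjustment over the 10198 genes and a threshold of 0.05. The time points were compared by an F-test, ZT2 with the mean of the others by a contrast, and the acute-phase index by a slope. F24 had 10000 permutations (seed 1). Lists are described by counts, with no test of the list. All 10 members are named, list genes where they passed a test or define a cell type, and the 10 genes most like the members. *Csf1r* has no position printed, and some list genes are not reported here. Methods were tested on simulated data. Promoters are RefSeq's, positions are of GENCODE's mm9 annotation, and older symbols were matched to the file's. The software was limma 3.58.1 in R 4.3.3, and pandas 2.3.3, numpy 2.4.6, scipy 1.17.1 and matplotlib 3.10.9 in Python 3.11.15. Alternatives were other filters, pseudocounts of 0.1 and 4, size factors, a replicate block, leaving out each sample and, for the slope, leaving out ZT2. Added after seeing the data were the F-test and rhythm without ZT2, the contrast without ZT22 or with endothelial scaling, and time point as a term.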

Additional observations from a re-analysis of the deposited data

How the results depend on the processing

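The depth of a sample limits the low genes most, above all *Marco*, and 2 samples per time point limit every test. All 189 differences of the 9 markers at ZT2 were positive under the alternatives, but the count of markers called higher went from 7 to 2 with no expression minimum, and ran from 0 to 7 with 1 sample left out (all genes called, 492 to 2190), where a lone ZT2 sample is assumed to vary like the other groups. For the F-test over time points, the counts with 1 sample left out were 0 to 2 markers and 921 to 2017 genes, and without ZT2 619 genes, against 2076. For the slope on the acute-phase index they were 5 to 8 markers and 580 to 1722 genes, and with no expression minimum 7 markers, *Marco* included, and 1369 genes. Without ZT2 they were 0 markers and 28 genes, and with time point as a term 0 markers and 10 genes, against 8 and 1583. For the 24 hr rhythm, leaving out 1 sample gave 0 to 4 markers and 1583 to 2002 genes, against 1 and 1956. Series 2 alone, without replicate 1, gave 5 markers and 360 genes, and series 1 alone, without replicate 2, gave 0 and 284. The adjusted permutation p gave 0 markers and 527 genes, limma's cosine and sine test gave 0 and 940, and leaving out ZT2 gave 0 and 1518. Size factors left the counts of markers as they were in all 4 results, and the other pseudocounts in the 3 limma tests. Without limma's trend, and without both ZT22 samples, 6 markers were called higher at ZT2, and the one lost was *Cd68*. The causes were not tested.

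The replicate numbers did not pair the samples. Over 15 pairs of time points, the deviations of same-numbered samples correlated between −0.15 and 0.21, and 2 pairs were above 0.1. With the replicate block, 7 markers were called higher at ZT2 (1931 genes called), 0 in the F-test (1706 genes), 7 for the slope (1520 genes) and 1 as rhythmic (1779 genes). The block ended the slope call of *Cd68*.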

Other observations

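Genes of MHC class II antigen presentation, chosen for this pattern after their values were seen, differed between replicates in the direction of the Kupffer cell markers at ZT6, ZT14 and ZT18, but were low at ZT2. *H2-Aa*, an MHC class II alpha chain, was at 39.9 and 88.8 rpbp at ZT6, at 84.1 and 32.5 rpbp at ZT14 and at 27.8 and 49.96 rpbp at ZT18. Replicate 2 was thus the higher at ZT6 and ZT18 and the lower at ZT14, as in the markers. At ZT10 the 4 genes were higher in replicate 2 (*H2-Aa* 38.4 and 54.5 rpbp), while the markers lay close together, and at ZT22 *H2-Eb1* was lower in replicate 2 (20.9 and 18.9 rpbp), while 10 of 10 markers were higher. At ZT2 *H2-Aa* was at 27.6 and 26.3 rpbp, below all 10 other samples (27.8 to 88.8 rpbp). *Cd74*, the invariant chain, was at 82.6 and 159 rpbp at ZT6, 174 and 81.2 rpbp at ZT14, and 72.4 and 59.6 rpbp at ZT2, and it overlapped with the other samples (64.1 to 174 rpbp). *H2-Ab1* was at 18.6 and 21.8 rpbp at ZT2 and at 22.4 to 73.5 rpbp elsewhere, and *H2-Eb1* at 13.6 and 16.2 rpbp, against 16.3 to 51.6 rpbp.

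The log2 differences at ZT2 were −0.74 ± 0.36, −0.82 ± 0.41, −0.77 ± 0.42 and −0.60 ± 0.32, for *H2-Aa*, *H2-Ab1*, *H2-Eb1* and *Cd74* (SE), and none passed the adjustment (adjusted p = 0.172 to 0.22, limma).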
